A study of Mus musculus with 12 samples.

Results

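The receptors for interferons and for interleukin-10 (IL-10) lie partly in a cluster on mouse chromosome 16, and the annotation places a read-through gene, Gm21970, across a pair of them. The genes described here are Gm21970, Ifnar1, Ifnar2, Il10rb, Ifngr1, Ifngr2, Il10ra and Ifnlr1. They were taken by name, which gave 8 of the 55679 genes and 33 of the 147907 transcripts in the deposited tables. Gm21970 had drawn attention because its level differed between KO and WT lungs, and its neighbours and relatives were listed with it. The lung comparison of KO with WT is therefore a description for all 8 genes, as is lung against heart in either genotype for Gm21970, Ifnar2 and Il10rb, whose WT and KO lung values entered the choice, and no test of these is given.

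RNA was measured by strand-specific sequencing of total RNA from whole lung and whole heart of 6 male mice aged 9 to 13 weeks, all of strain 129S6/SvEvTac. The 3 KO mice were homozygous for Adam19-tdTomato, a whole-body mutation that removes exons 6 and 7 of the gene and puts the sequence of a red fluorescent protein, tdTomato, into its reading frame. A drug selection cassette (HygroR) lies there on the opposite strand. The 3 WT mice carried the unaltered gene. Each mouse gave 1 lung and 1 heart library, so the 12 libraries form 4 groups of 3. A replicate number stands for 1 mouse of its genotype, whichever tissue is meant. No prefix of the mouse identifiers was shared by WT and KO mice, so genotype and whatever these prefixes stand for cannot be told apart.

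Type I interferons bind a receptor made of IFNAR1 and IFNAR2, type II interferon binds IFNGR1 with IFNGR2, and type III interferons (IFN-λ) bind IFNLR1 with IL10RB. IL10RB is also the shared chain of the IL-10 receptor, where IL10RA is the ligand-binding chain found mostly on leukocytes. All of these are class II cytokine receptors, which signal through Janus kinases (JAK) to STAT transcription factors. In lung, type III interferon signalling is known chiefly from the epithelium, and IL-10 signalling restrains macrophages.

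The summed estimated counts of a library ran from 17674788 to 35862932. The gene value of Adam19, on the deposited log2 scale, was 9.12 to 9.41 in WT lungs and 3.21 to 4.44 in KO lungs. In hearts it was 9.17 to 10.27 in WT and 6.01 to 6.67 in KO, so each library fitted its genotype label. Lung and heart libraries separated on the tissue markers. The 5 heart muscle markers (Myh6, Tnnt2, Actc1, Myl2 and Tnni3) had a summed level of 20.64 to 20.97 in WT hearts and 13.65 to 14.51 in WT lungs. The 5 alveolar and airway markers (Sftpc, Sftpb, Ager, Scgb1a1 and Foxj1) summed to 18.52 to 18.93 in WT lungs and 6.06 to 9.47 in WT hearts. Some libraries stood apart from their group for single genes, as given with those genes. The library of WT heart replicate 2 was the single heart library with Gm21970, and it also had the highest heart level of the Ifngr1 transcript Ifngr1-203, so the main results are also given without it. In whole tissue, fewer cells of a type and less RNA per cell cannot be told apart.

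The loci of 4 receptor genes lie in a row on the plus strand of chromosome 16 within 192895 bases of the GRCm39 assembly (mm39), from Ifnar2 at chr16:91169618-91202723 through Il10rb at chr16:91203012-91224600 and Ifnar1 at chr16:91281942-91305789 to Ifngr2 at chr16:91343906-91362512. Only 288 bases separate the end of Ifnar2 from the start of Il10rb. Gm21970 (ENSMUSG00000093701.9, chr16:91180749-91222722) is annotated as a protein-coding read-through gene over these neighbours. The other receptor genes lie elsewhere, Ifngr1 at chr10:19467697-19485977 on the plus strand, Il10ra at chr9:45165132-45180563 on the minus strand and Ifnlr1 at chr4:135413514-135435492 on the plus strand.

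Gm21970-201 (ENSMUST00000160764.3), the transcript that carried every Gm21970 value above 0, has 12 exons and 2459 bases. Of these bases 747 lie in exons of Ifnar2-201 and 1712 in exons of Il10rb-201, and 0 lie outside both. It holds 6 exons identical to exons of Ifnar2-201 and 5 identical to exons of Il10rb-201. Its last exon begins with the last exon of Il10rb-201 but stops 1878 bases earlier. The annotated reading frame of 569 codons takes 709 nucleotides from Ifnar2 exons and 998 from Il10rb exons. What it has that no other annotated transcript of the 8 genes has is the junction between its exons 6 and 7, across an intron of 13704 bases. The sequences below show that junction beside the ordinary ones that share its sides. Each is 30 bases, read 5′ to 3′ from the GENCODE vM39 transcripts of GRCm39, with the bases after the junction in capitals. For Ifnar2-203 the capitals mark bases read on into the intron.

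Ifnar2-201, exon 7 (chr16:91190787-91190801) to exon 8 (chr16:91196106-91196120): ctggccaggaatcagGATTATCAGAATCTG
Gm21970-201, exon 6 (chr16:91190787-91190801) to exon 7 (chr16:91204506-91204520): ctggccaggaatcagCTCTAGGAATGATTC
Il10rb-201, exon 1 (chr16:91203246-91203260) to exon 2 (chr16:91204506-91204520): tccttctggtgccagCTCTAGGAATGATTC
Ifnar2-203, exon 7 read on (chr16:91190787-91190816): ctggccaggaatcagGTATGGCTAGGTTTT

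The left side of the Gm21970-201 junction is the left side of the Ifnar2-201 junction, and its right side is that of Il10rb-201. A read that does not cross this junction therefore also matches Ifnar2 or Il10rb. The deposited values are Salmon estimates, which divide such reads between the transcripts that could have given them. No reads were used here, so the number that crossed the junction is not known.

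**Figure D1:**
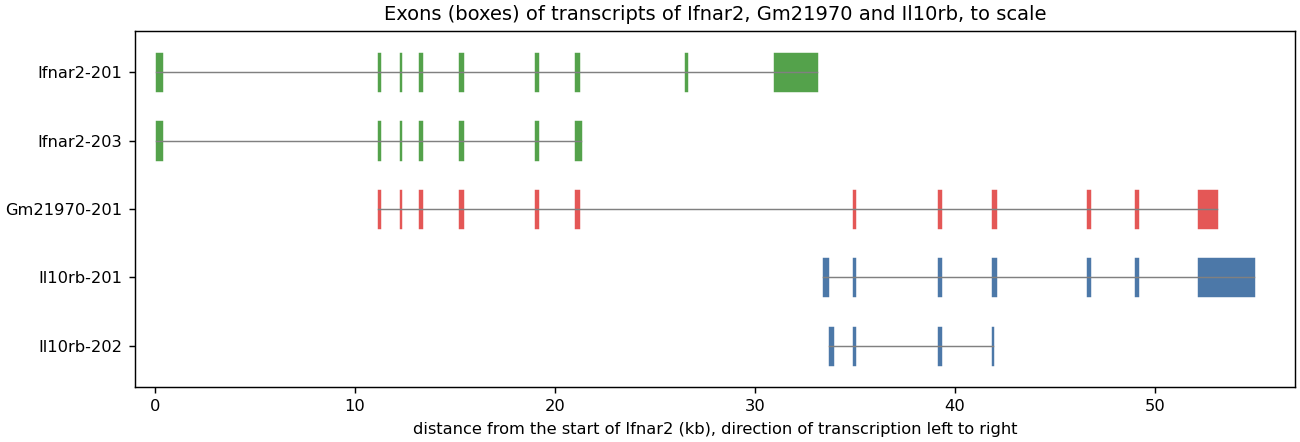
Exons of Ifnar2-201, Ifnar2-203, Gm21970-201, Il10rb-201 and Il10rb-202 (1 row each, boxes to scale) against the distance in kb from the start of Ifnar2. The boxes of Gm21970-201 stand under those of Ifnar2 on the left and above those of Il10rb on the right, and its last box ends before that of Il10rb-201.

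Gm21970 was present in KO lungs and listed at 0 in WT lungs. Its gene value was 9.31, 10.38 and 9.23 in KO lung replicates 1, 2 and 3 and was listed at 0 in each of the 3 WT lungs. In hearts it was 8.74 in WT replicate 2 and listed at 0 in the other 5 libraries, the 3 KO hearts among them. Gm21970 was thus above 0 in 4 of 12 libraries, and the KO mice had it in every lung while their hearts were listed at 0. The estimated counts behind these values were 788, 2197 and 525 in the KO lungs and 263 in the WT heart. Gm21970-202, the other transcript of the gene, was at 0 in all 12 libraries.

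Il10rb and Ifnar2 were both lower in KO than in WT lungs. The gene value of Il10rb, the shared chain of the IL-10 and IFN-λ receptors, was 10.22, 10.19 and 10.45 in WT lungs and 9.85, 9.22 and 9.73 in KO lungs, a log2 difference of -0.69 (SE 0.20). Ifnar2, the high-affinity chain of the type I receptor, was 10.22, 9.99 and 10.62 in WT lungs and 9.93, 9.23 and 9.66 in KO lungs, a log2 difference of -0.67 (SE 0.23). For both genes every KO lung lay below every WT lung. The KO lung with the highest Gm21970, replicate 2, had the lowest value of both genes. When 1 lung library at a time was left out, the difference of Il10rb lay between -0.81 and -0.49 and that of Ifnar2 between -0.83 and -0.48. With Gm21970, this gave 3 of the 8 genes whose KO and WT lungs did not overlap. Of all 16551 genes tested in the lung, 12.8% did not overlap and 0.0665% passed the thresholds, which asked for an adjusted p below 0.05, a change of 1.5-fold or more and a group mean of 6 or more in at least 1 group. Since the genes were chosen on this contrast, the count is printed beside that share only.

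The sum over the 3 overlapping genes did not separate the genotypes. On the deposited gene scale the log2 of the summed values of Gm21970, Il10rb and Ifnar2 was 11.22, 11.09 and 11.54 in WT lungs and 11.30, 11.30 and 11.14 in KO lungs. The groups overlapped and their means differed by -0.03. Without Gm21970 the sum of Il10rb and Ifnar2 averaged 11.28 ± 0.23 over the WT lungs and 10.60 ± 0.34 over the KO lungs (SD, n = 3 each), with every KO lung lower. Of the pooled estimated counts of the 3 genes, Gm21970-201 held 24.5%, 50.7% and 26.5% in KO lung replicates 1, 2 and 3. Il10rb held 51.5% ± 2.1 of them in WT lungs and 31.3% ± 7.7 in KO lungs (SD, n = 3 each). The share of Ifnar2 was 48.5% ± 2.1 in WT and 34.9% ± 6.9 in KO lungs (SD, n = 3 each). When Gm21970 was added to Il10rb alone, the KO lungs were higher, 10.67 ± 0.21 against 10.29 ± 0.15 (SD, n = 3 each).

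**Figure D2:**
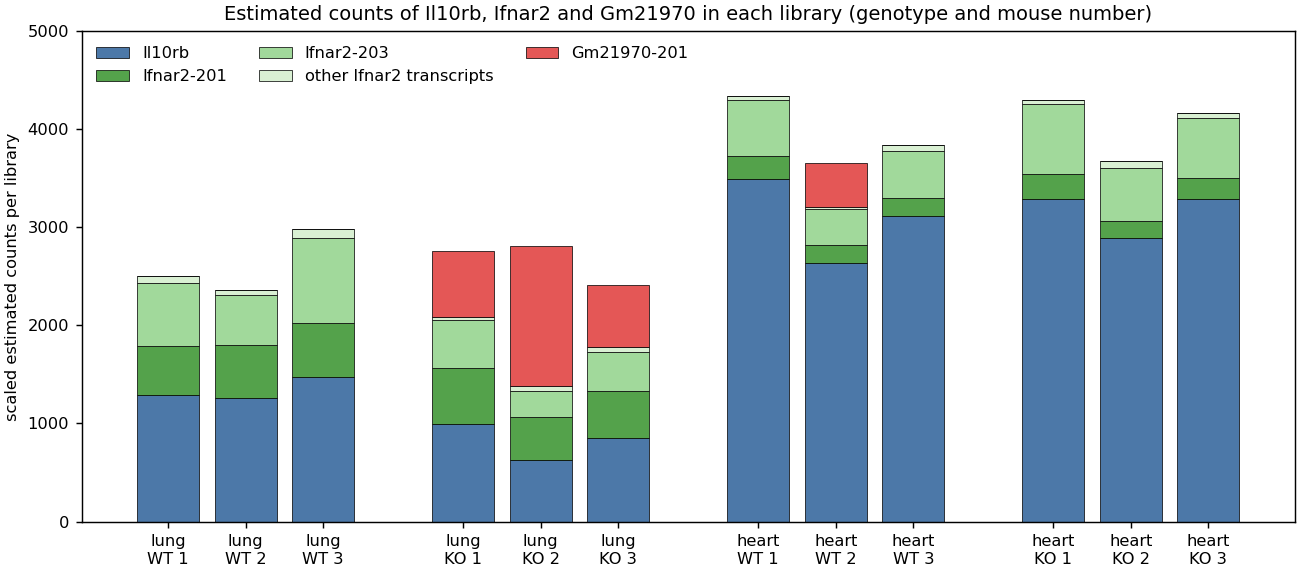
Estimated counts, scaled by the constant of the library (a shift on the log2 scale), of Il10rb, Ifnar2-201, Ifnar2-203, the other Ifnar2 transcripts and Gm21970-201, stacked in each of the 12 libraries. Gm21970-201 fills 24.5% to 50.7% of the bar in KO lungs and 12.4% in WT heart replicate 2, and the bars of WT and KO libraries of a tissue reach overlapping heights.

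WT heart replicate 2 was the heart library with Gm21970. Gm21970-201 held 12.4% of the pooled estimated counts in that library. Il10rb held 72.2% there, against 80.5% and 81.3% in WT heart replicates 1 and 3 and 76.5%, 78.6% and 79.1% in KO hearts. Ifnar2 held 15.4%, against 19.5% and 18.7% in the other WT hearts. Both genes had their lowest heart share and level in this library, where the gene value of Il10rb was 11.44 against 11.84 and 11.80 and that of Ifnar2 was 9.25 against 9.88 and 9.62. Its sum of the 3 genes, 11.89, was also the lowest of the 6 hearts.

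In the heart the receptor genes did not separate KO from WT beyond the spread between mice. Of the 7 genes that could be tested (Gm21970 had too few libraries above the filter), 0 passed the thresholds in limma and 0 in limma-voom, and 0 had an unadjusted p under 0.05. Over all 15303 genes tested in the heart, 0.085% passed and 1141 had an unadjusted p under 0.05. The largest log2 differences were 0.39 (95% interval -0.28 to 1.05, adjusted p = 0.773 in limma) for Il10ra and 0.38 (95% interval -0.04 to 0.79, adjusted p = 0.694 in limma) for Ifnar2. The interval of Il10rb was -0.32 to 0.33. The interval of Ifnar2 reached 0.04 below no difference.

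Only Ifngr1, the ligand-binding chain of the type II receptor, had KO hearts that did not overlap WT hearts. Its values were 10.25, 10.21 and 10.11 in WT and 10.27, 10.47 and 10.37 in KO hearts, a log2 difference of 0.18 (95% interval -0.09 to 0.45, adjusted p = 0.754 in limma). That is 1 of 7 genes, and 13% of all genes tested in the heart did not overlap. Leaving out WT heart replicate 2, the library with Gm21970, 0 of the 7 genes passed, the log2 difference of Ifnar2 went from 0.38 to 0.21 and that of Il10rb from 0.01 to -0.12. The summed level of Gm21970, Il10rb and Ifnar2 in the heart was 12.17, 11.89 and 12.08 in WT and 12.15, 11.93 and 12.15 in KO (exact two-sided permutation test, p = 0.7, where the smallest p that 3 against 3 allow is 0.1).

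The other 5 receptor genes had lung levels that overlapped between the genotypes. Ifnar1, the second chain of the type I receptor, was 11.05, 11.06 and 11.32 in WT lungs and 11.17, 10.92 and 11.33 in KO lungs. Ifngr1 was 11.38, 11.30 and 11.25 in WT and 11.36, 11.49 and 11.07 in KO lungs. Ifngr2, the signalling chain of the type II receptor, was 10.18, 9.97 and 9.16 in WT and 9.93, 9.79 and 9.67 in KO lungs. WT lung replicate 3 was low for this gene. Il10ra was 8.95, 8.51 and 8.58 in WT and 8.84, 8.72 and 8.70 in KO lungs. Ifnlr1, the ligand-binding chain for IFN-λ, was 8.41, 8.36 and 8.11 in WT and 8.14, 8.19 and 8.06 in KO lungs. The groups overlapped in each of these 5 genes, with log2 differences between -0.17 and 0.07. Of the marker lists, the summed levels of 2 did not overlap between the lung groups. That of 6 macrophage markers (Cd68, Adgre1, Mrc1, Marco, Lyz2 and Csf1r) was 16.85 to 16.91 in WT and 16.49 to 16.71 in KO lungs. Lyz2, at a mean of 16.78 in WT and 16.50 in KO lungs, made up most of that sum, while the median log2 difference of the 6 was -0.0045, with Marco at 0.63 and Cd68 at 0.24. The sum of the 4 epithelial markers (Epcam, Cdh1, Krt8 and Krt18) was 13.61 to 13.64 in WT and 13.22 to 13.55 in KO lungs, with a median difference of -0.07 and Krt8 at -0.49. In both lists 0 genes passed the thresholds in limma and 0 had an unadjusted p under 0.05. The sums of the alveolar and airway markers overlapped, with 2 of 5 at an unadjusted p under 0.05 and Sftpc at -0.67 and Scgb1a1 at 0.64. Those of the heart muscle markers also overlapped, with a median difference of -0.50, 1 of 5 at an unadjusted p under 0.05 and Myh6 at -0.84. The neutrophil sums overlapped too, at 10.01 to 10.11 in WT and 10.01 to 10.99 in KO lungs. Of these markers 1 of 3 tested had an unadjusted p under 0.05, with Retnlg at 0.88, S100a9 at 0.36 and S100a8 at 0.02. Over all 16551 genes tested in the lung, 981 had an unadjusted p under 0.05. The part of these markers in the lower Il10rb and Ifnar2 was not tested.

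**Figure D3:**
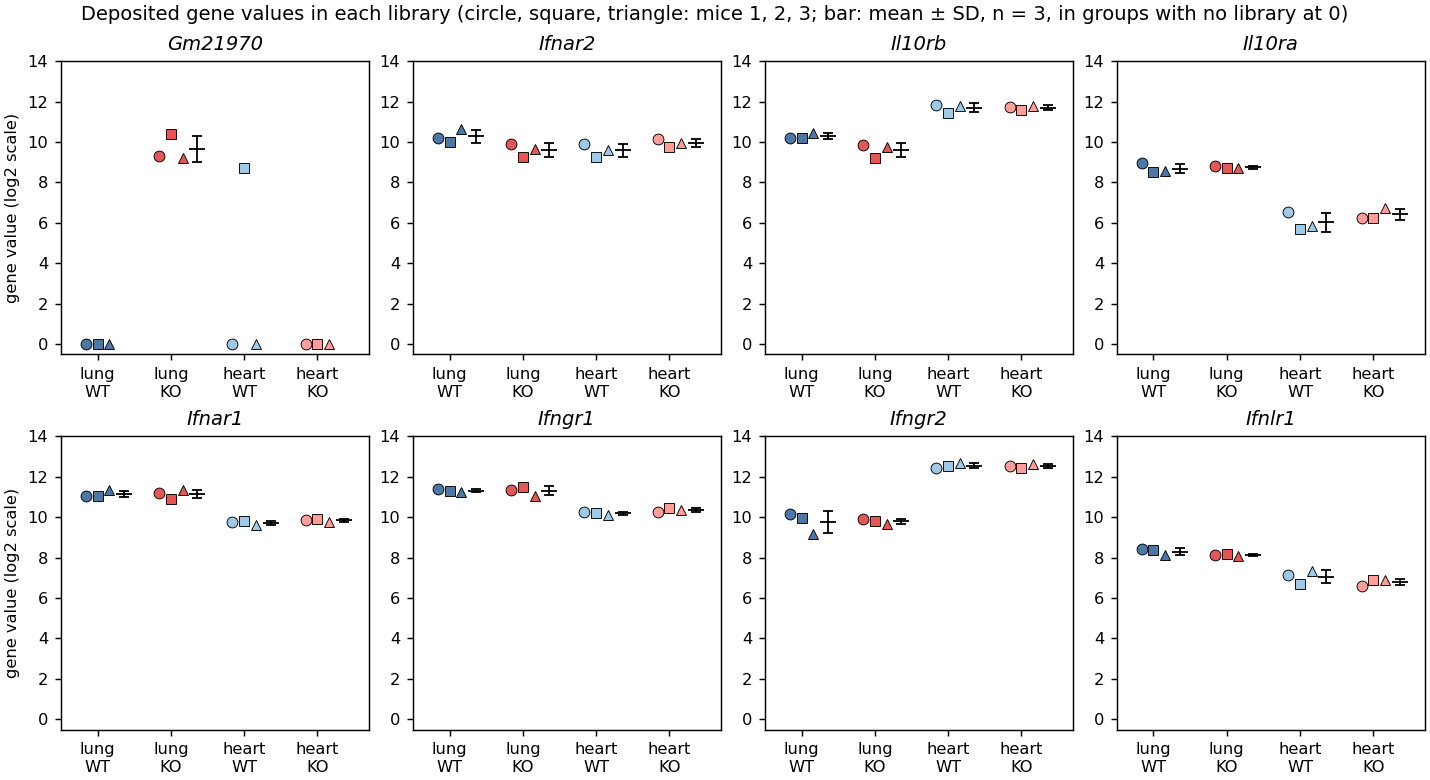
Deposited log2 gene values of the 8 genes, 1 panel each, in WT and KO lungs and hearts (points are libraries, bars are mean ± SD). Gm21970 is at 0 in WT lungs and between 9.23 and 10.38 in KO lungs, Ifngr2 and Il10rb are higher in hearts, and the other receptors are mostly higher in lungs.

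Levels of different genes were set side by side as scaled estimated counts per kb of transcript. In WT lungs Ifngr1 led with 1214 ± 50 (SD, n = 3) per kb, followed by Ifnar2 with 801 ± 180 and Ifnar1 with 607 ± 31. Il10rb with 361 ± 44 and Ifngr2 with 342 ± 111 came next and overlapped each other. Il10ra with 118 ± 20 and Ifnlr1 with 74.0 ± 8.0 were the lowest of the genes above 0. The chain that binds the ligand was the scarcer one in the IL-10 and IFN-λ receptors, by this measure, and the more abundant one in the type II receptor.

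The hearts had another order. In WT hearts Ifngr2 led with 2219 ± 182 (SD, n = 3) per kb and Il10rb was next with 1025 ± 154. Ifngr1 with 559 ± 25 and Ifnar2 with 490.0 ± 106 overlapped. Ifnar1 followed with 246 ± 16. Ifnlr1 with 31.4 ± 6.8 and Il10ra with 19.0 ± 6.7 were lowest and overlapped. In KO hearts the same order of these 7 genes was found. In KO lungs Gm21970 stood at 275, 578 and 260 per kb, overlapping Ifnar2 (507 ± 117) above it and Ifngr2 (340 ± 29) below it, while Il10rb (231 ± 48) had dropped under Ifngr2.

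The tissues differed in the 5 receptor genes tested. In WT mice 4 of the 5 were higher in lung and 1 was higher in heart, with 50.2% of all 16636 genes past the thresholds in this comparison, 29.7% higher in lung and 20.5% lower. Lungs and hearts did not overlap in any of the 5, beside 68.7% of all genes. Ifnar2 and Il10rb are described beside them without a test. Among the type I receptor genes, Ifnar1 was 11.05, 11.06 and 11.32 in lungs and 9.76, 9.81 and 9.62 in hearts, 2.67-fold higher in lung (log2 difference 1.42, SE 0.15, adjusted p = 7.51e-05 in limma). Ifnar2 differed by 0.69 (SE 0.23) on the log2 scale, and its lung values of 9.99 to 10.62 stood above its heart values of 9.25 to 9.88. The difference of Ifnar2 was 0.53 without WT heart replicate 2.

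The type II receptor chains went opposite ways. Ifngr1 was 2.17-fold higher in lung (log2 difference 1.12, SE 0.14, adjusted p = 0.000161 in limma). Ifngr2 was 10.18, 9.97 and 9.16 in WT lungs and 12.42, 12.52 and 12.68 in WT hearts, 6.84-fold higher in heart (log2 difference -2.77, SE 0.26, adjusted p = 3.48e-05 in limma). The chains of the IL-10 receptor also went opposite ways. Il10ra was 8.95, 8.51 and 8.58 in WT lungs and 6.55, 5.68 and 5.87 in WT hearts, 6.26-fold higher in lung (log2 difference 2.65, SE 0.29, adjusted p = 8.68e-05 in limma). Il10rb, with values of 11.84, 11.44 and 11.80 in WT hearts, differed by -1.40 (SE 0.17), every heart above every lung. Adding Gm21970 to Il10rb changed this difference to -1.47. Ifnlr1, which pairs with IL10RB, was 8.41, 8.36 and 8.11 in WT lungs and 7.14, 6.70 and 7.32 in WT hearts, 2.36-fold higher in lung (log2 difference 1.24, SE 0.24, adjusted p = 0.00211 in limma). Without WT heart replicate 2 the 5 tested genes passed, with Ifnlr1 at 1.06, Ifnar1 at 1.46, Ifngr1 at 1.13, Ifngr2 at -2.78 and Il10ra at 2.47, and Il10rb differed by -1.53.

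KO mice gave the tissue contrast in other animals. All 5 genes tested there passed, in the same direction as in WT, with 53.2% of all 16802 genes past the thresholds. The log2 differences of lung and heart were 1.30 (SE 0.13, adjusted p = 3.26e-05 in limma) for Ifnar1 and 0.93 (SE 0.13, adjusted p = 0.000269 in limma) for Ifngr1. They were -2.72 (SE 0.11, adjusted p = 2.81e-07 in limma) for Ifngr2, 2.33 (SE 0.18, adjusted p = 9.35e-06 in limma) for Il10ra and 1.33 (SE 0.16, adjusted p = 0.000109 in limma) for Ifnlr1. Il10rb differed by -2.10 (SE 0.17) in KO, against -1.40 in WT. Ifnar2 differed by -0.35 (SE 0.19) in KO, against 0.69 in WT, and its KO lungs (9.23 to 9.93) overlapped its KO hearts (9.77 to 10.16). From summed transcripts the KO difference of Ifnar2 was 0.05.

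Markers of other cells moved with the tissues. The marker counts stand beside 29.7% of all 16636 genes past the thresholds and higher in lung, and 20.5% lower. All 4 leukocyte markers (Ptprc, Cd52, Coro1a and Laptm5) were higher in WT lungs, with a summed level of 12.93 to 13.37 against 9.22 to 9.77 in hearts. Of the macrophage markers, Cd68, Adgre1, Mrc1, Lyz2 and Csf1r were higher in lung, and all 6 summed to 16.85 to 16.91 against 12.38 to 12.80. The 4 neutrophil markers summed to 10.01 to 10.11 in WT lungs against 2.77 to 3.86 in WT hearts, and Ngp was at 0 in every WT heart. In the 6 hearts 0 of these 4 had enough libraries above the filter for a test. They are therefore only described. Of the epithelial markers, Krt8 and Krt18 were higher in lung, and these with Epcam and Cdh1 summed to 13.61 to 13.64 against 6.90 to 7.33. The WT heart means of Epcam (0.88), Cdh1 (2.51) and the macrophage marker Marco (1.80) also lay under the filter, so these genes are only described. For endothelium 3 of 4 markers were higher in lung, summed 15.06 to 15.27 against 13.79 to 13.97. All 5 heart muscle markers were lower in lung. The part of these cells in the tissue differences of the receptor genes was not tested.

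**Figure D4:**
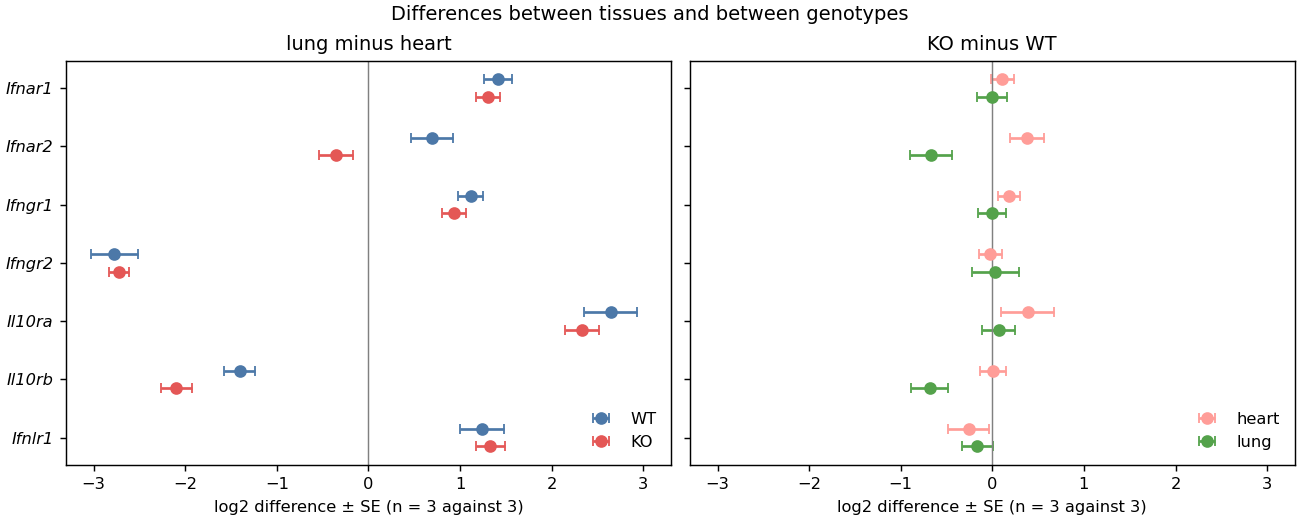
Log2 differences with SE of the 7 receptor genes between lung and heart in WT and KO mice (left), and between KO and WT in heart and lung (right). Ifngr2 and Il10rb lie to the left of 0 in both genotypes, Ifnar2 lies on opposite sides, and in the right panel Ifnar2 and Il10rb of the lung lie apart from the others.

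By transcript, 33 transcripts belonged to the 8 genes. Of these 12 were above 0 in every library and 4 were at 0 in every library. In WT lung against WT heart 11 transcripts of the genes other than Gm21970, Ifnar2 and Il10rb were tested, and 7 passed the thresholds, 5 higher in lung and 2 lower, with 29% of all 35553 transcripts past them, 15.5% higher and 13.5% lower. The count was also 7 without WT heart replicate 2. Ifnar1-202 and Ifnar1-206 were among the 11 through their lung values alone and are only described. In the heart 15 transcripts were tested between the genotypes and 0 passed, with 0.0625% of all 32015 transcripts past the thresholds. Only Ifngr1-201 (log2 difference 0.30, adjusted p = 0.816 in limma) and Ifngr2-201 (log2 difference -0.09, adjusted p = 0.838 in limma) had KO hearts that did not overlap WT hearts, 2 of 15 against 12.2% of all transcripts tested. Transcript values from here on are log2 of 1 plus the estimated count, plus the scaling constant of the library where the count is above 0. In the lung, 6 of 17 transcripts did not overlap between KO and WT, with 13.2% of all 36857 transcripts not overlapping. They were Gm21970-201, Il10rb-201, Ifnar2-203, Ifnar2-204, Ifnar1-203 and Ifngr1-203.

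Ifnar2 was carried by a pair of transcripts that differ at the 3′ side. Ifnar2-201 has 9 exons and 513 codons. Ifnar2-203 reads on for 127 bases past the end of exon 7 and stops there, with 248 codons, so it lacks the exons that follow. In mouse a soluble form of IFNAR2 is known that comes from such shortened transcripts. Ifnar2-201 was 8.95, 9.08 and 9.10 in WT lungs and 7.86, 7.49 and 7.49 in WT hearts, a log2 difference of 1.43 (SE 0.18), which was 1.37 without WT heart replicate 2. Ifnar2-203 was 9.35, 8.98 and 9.77 in WT lungs and 9.16, 8.54 and 8.90 in WT hearts, a log2 difference of 0.50 (SE 0.27), or 0.33 without WT heart replicate 2. Every lung was thus above every heart for the longer form, and the tissues overlapped for the shorter form.

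The ratio of the 2 forms was chosen after its values were seen and is given without a test. The log2 ratio of Ifnar2-203 to Ifnar2-201 was 0.40, -0.10 and 0.66 in WT lungs and 1.30, 1.06 and 1.42 in WT hearts. It was -0.21, -0.73 and -0.29 in KO lungs and 1.45, 1.56 and 1.55 in KO hearts. All 6 hearts lay above all 6 lungs, and every KO lung lay below every WT lung. In KO lungs the lower Ifnar2 gene value went with Ifnar2-203, whose log2 difference was -0.83 (SE 0.31). For Ifnar2-201 that difference was -0.10 (SE 0.16), with overlapping groups. Both forms share exons 2 to 7 of Ifnar2 with Gm21970-201, up to the last base before its junction.

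Il10rb was carried almost wholly by Il10rb-201, which was 10.34, 10.29 and 10.49 in WT lungs and 9.96, 9.25 and 9.69 in KO lungs. In hearts it was 11.73, 11.31 and 11.53 in WT and 11.63, 11.44 and 11.63 in KO. Il10rb-202, a short transcript that starts from another exon 1 (chr16:91203332-91203504), was 0, 0 and 3.56 in WT lungs and 6.77, 6.39 and 7.38 in WT hearts. It was thus at 0 in 2 of 3 WT lungs and lower in the third than in any heart, and it was 6.58, 6.54 and 6.96 in KO hearts. Its share of the Il10rb estimated counts was 3.1%, 3.1% and 5.3% in WT hearts and at most 1.8% in any lung. The junction of Il10rb-202 has the same right side as those of Il10rb-201 and Gm21970-201, with the bases of exon 2 in capitals.

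Il10rb-202, exon 1 (chr16:91203490-91203504) to exon 2 (chr16:91204506-91204520): caggatgtctagaagCTCTAGGAATGATTC

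Il10rb-205, which ends at position 91222710, near the end of Gm21970-201 at 91222722, was low throughout. It was 4.02, 3.31 and 3.55 in KO hearts and at 0 in WT hearts, and in lungs it was 3.4 in KO replicate 2 and 0 elsewhere. It did not reach the filter for a test. A later annotation (GENCODE vM39) also holds Il10rb-213, which ends 7 bases before the end of Gm21970-201, but the deposited table, made on an earlier one, has no value for it.

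Ifngr1-203 is a transcript of Ifngr1 marked for nonsense-mediated decay. Its exon 2 is 14 bases shorter than that of Ifngr1-201, which shifts the reading frame into a stop codon in exon 3 after 75 codons, against 477 in Ifngr1-201. The sequences show the 14 bases, in capitals, in Ifngr1-201, and the junction without them in Ifngr1-203, with the bases of exon 3 in capitals.

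Ifngr1-201, end of exon 2 (chr10:19473257-19473278) and start of exon 3 (chr10:19477068-19477075): ctgtacagGTAAAGGTGTATTCgggttcct
Ifngr1-203, exon 2 (chr10:19473250-19473264) to exon 3 (chr10:19477068-19477082): atttttactgtacagGGGTTCCTGGACTGA

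Ifngr1-203 was 4.46, 0 and 4.68 in WT lungs and 7.56, 8.11 and 7.45 in KO lungs. It was 5.60, 7.33 and 3.62 in WT hearts and 4.25, 3.71 and 3.97 in KO hearts. Its high values were those of the 3 KO lungs and of WT heart replicate 2, the same 4 libraries in which Gm21970 was above 0. It made up 7.1%, 9.7% and 8.0% of the Ifngr1 estimated counts in KO lungs and 14% in WT heart replicate 2. In the other 8 libraries it made up at most 3.9%. Ifngr1-201, the full-length form, was 11.33, 11.30 and 11.24 in WT lungs and 11.25, 11.32 and 10.95 in KO lungs, and these overlapped, as the gene values of Ifngr1 did. The tissue difference of Ifngr1-203 in WT did not pass (log2 difference -2.47, SE 1.60, adjusted p = 0.269 in limma). Without WT heart replicate 2 it was -1.57.

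**Figure D5:**
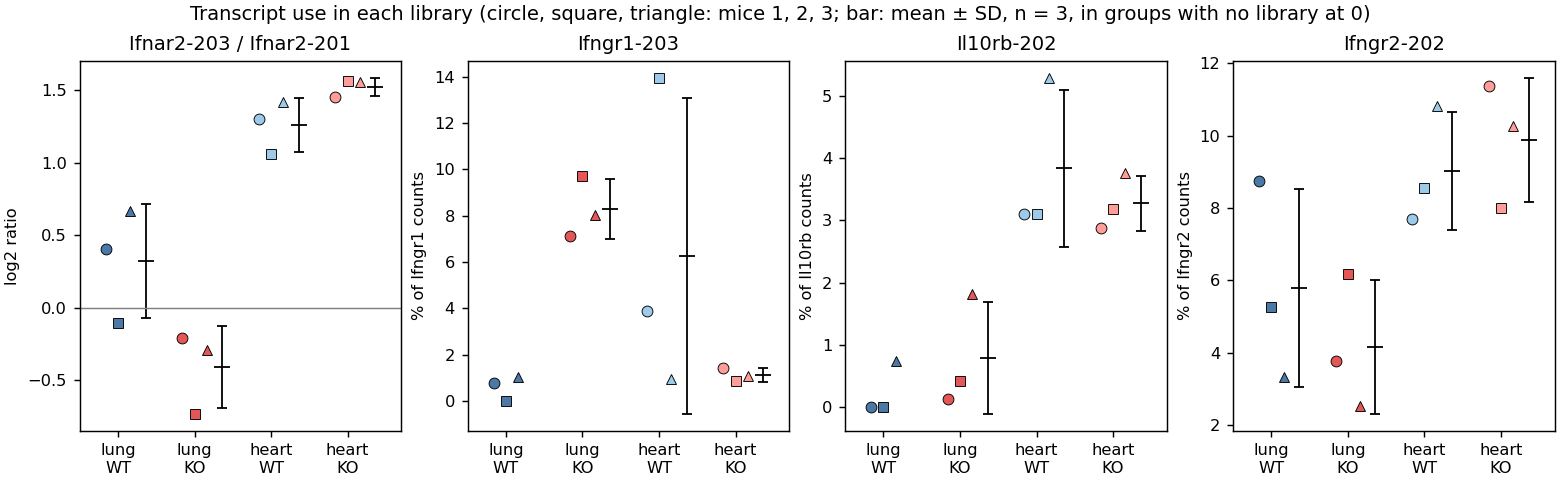
The log2 ratio of Ifnar2-203 to Ifnar2-201 and the percent of their genes' estimated counts held by Ifngr1-203, Il10rb-202 and Ifngr2-202, in each library. The Ifnar2 ratio is lowest in KO lungs, Ifngr1-203 is highest in KO lungs and in WT heart replicate 2 (14%), and Il10rb-202 is above 2% in hearts only.

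Both tested forms of Ifngr2 were higher in heart. Ifngr2-201 lay between 9.37 and 10 in WT lungs and 12.25, 12.28 and 12.26 in WT hearts (log2 difference -2.50, SE 0.19, adjusted p = 0.000338 in limma). Ifngr2-202, which is marked for nonsense-mediated decay and lacks exon 2 (chr16:91351836-91351968), differed by -3.26 (SE 0.53, adjusted p = 0.0049 in limma). It made up 7.7% to 10.8% of the Ifngr2 estimated counts in WT hearts and 3.3% to 8.7% in WT lungs, which overlapped.

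Ifnar1 was carried mainly by Ifnar1-201, which held 87.3% ± 4.1 of the Ifnar1 estimated counts in lungs and 94.4% ± 4.1 in hearts of WT mice (SD, n = 3 each). Ifnar1-201 differed by 0.94 between the tissues (SE 0.14, adjusted p = 0.0031 in limma) and the retained-intron transcript Ifnar1-205 by 1.95 (SE 0.54, adjusted p = 0.0334 in limma). The call of Ifnar1-205 was lost without lung replicate 1 or 3 or heart replicate 1 or 3, with adjusted p from 0.0698 to 0.0964. Ifnar1-202 was 6.57, 6.21 and 5.13 in WT lungs and listed at 0 in all 3 WT hearts. Ifnar1-206 was 4.98 to 6.77 in WT lungs and also listed at 0 in those hearts. In KO hearts these transcripts were above 0 in 2 and 1 of 3 libraries. Ifnar1-203, which is marked for nonsense-mediated decay, was 6.15, 5.05 and 6.02 in WT lungs and 6.29, 6.31 and 6.34 in KO lungs. It was 4.0, 6.34 and 3.78 in WT hearts and 5.11, 3.88 and 0 in KO hearts. Its 4 highest values were again those of the KO lungs and of WT heart replicate 2, although WT lung replicates 1 and 3 came close. Il10ra and Ifnlr1 were carried by 1 transcript each, Il10ra-201 with at least 98.0% of the Il10ra estimated counts in every library.

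The ligands of these receptors were hardly seen. Of 24 interferon and IL-10 family genes, 0 reached the filter for a test, and their summed level was at most 3.36 in any library. Among other class II cytokine receptors 0 of 3 tested passed all thresholds between WT lung and WT heart. Il22ra1, a chain of the IL-22 receptor named here after its values were seen, had a mean of 4.76 in WT lungs and 1.80 in WT hearts. Both group means were under 6 and that of the hearts lay under the filter, so Il22ra1 is only described. The kinases and signal transducers behind the receptors were mostly higher in WT lung, 8 of 13, with 2 lower and a median log2 difference of 0.69, beside 29.7% higher and 20.5% lower among all genes tested. The median of all 16636 genes was 0.30. Ptpn6, a phosphatase of blood cells, was higher by 3.28 (adjusted p = 5.73e-05 in limma), Usp18, which restrains type I signalling at IFNAR2, by 3.10 (adjusted p = 3.98e-05 in limma) and Socs3, which restrains STAT3 signalling, by 2.30 (adjusted p = 2.59e-05 in limma). Ptpn11, another phosphatase, was at -1.38 (adjusted p = 7.56e-05 in limma). The leukocyte markers given above moved the same way as Ptpn6.

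Interferon targets were also higher in WT lung, 12 of 19 tested with 0 lower and a median log2 difference of 1.41, beside the same shares of 29.7% and 20.5%. Oas2, named after its values were seen, was at -1.54 (adjusted p = 0.0243 in limma) with group means under 6, so it was not counted. Without WT heart replicate 2, 11 interferon targets and 7 kinases and transducers were higher in lung, and the counts of the IL-10 targets and flanking genes were the same. The flanking genes higher in lung went from 5 to 3 without lung replicate 2 or 3 or heart replicate 1 or 3, and the kinases and transducers lower in lung from 2 to 1 without lung replicate 3 or heart replicate 1 or 3. The largest were Ifit3 (3.31, adjusted p = 2.91e-06 in limma), an antiviral effector, Ciita (3.23, adjusted p = 1.72e-05 in limma), the activator of MHC class II genes, Ifit1 (2.01, adjusted p = 0.000385 in limma) and Ifih1 (1.98, adjusted p = 5.84e-05 in limma), a sensor of double-stranded RNA. Of 7 IL-10 targets 4 were higher and 1 was lower. Il4ra was at 2.92 (adjusted p = 5.13e-06 in limma), Socs3 as above and Nfil3 at -1.53 (adjusted p = 0.00492 in limma). Il1rn (the IL-1 receptor antagonist), counted among the 4, had a mean of 7.17 in WT lungs and 1.49 in WT hearts. Its heart mean lay under the filter, so Il1rn is only described. Of 13 tested genes that flank the cluster on chromosome 16, 5 were higher in lung and 4 lower. Dnajc28 was at -2.73 (adjusted p = 4.81e-06 in limma), Eva1c at 2.59 (adjusted p = 9.24e-05 in limma), Mrps6 at -2.11 (adjusted p = 0.000247 in limma) and Donson at 1.097 (adjusted p = 0.026 in limma), so direction was not shared along the region.

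Between KO and WT hearts 0 genes of any of these lists passed the thresholds in limma. At an unadjusted p under 0.05 there was 1 of 18 interferon targets and 1 of 13 flanking genes. There were 0 among the ligands, other class II receptors, kinases and transducers and IL-10 targets. Of the marker lists reported, only the epithelial one had any, 1 of 2 tested, with Krt18 at 0.71. Its summed level was 7.46 to 8.06 in KO hearts and 6.90 to 7.33 in WT hearts, which did not overlap. The part of these markers in the heart values was not tested. The median log2 difference was 0.23 for the interferon targets, 0.03 for the kinases and transducers and -0.08 for the flanking genes, beside 0.03 for all genes tested in the heart. The IL-10 targets had a summed level of 12.24 to 12.38 in KO lungs and 12.44 to 12.53 in WT lungs, which did not overlap, like the macrophage sums (16.49 to 16.71 and 16.85 to 16.91) and the epithelial sums (13.22 to 13.55 and 13.61 to 13.64), whose part was not tested, and in the heart their sums did (10.82 to 11.18 and 10.81 to 11.18). In the lung 0 of the 7 passed the thresholds in limma and 1 had an unadjusted p under 0.05. Their median log2 difference was -0.25. Nfil3 was at -0.90, Il4ra, with the highest level of the 7, at -0.30, Socs3 at -0.29, Il1rn at -0.25 and Sbno2 at -0.0036, and Bcl3 and Etv3 were at 0.51 and 0.06. The lung sums of the interferon targets (13.22 to 13.36 in KO and 13.18 to 13.37 in WT), the kinases and transducers, the flanking genes, the ligands and the other class II receptors overlapped.

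Over the 12 libraries the genes whose pattern was most like Gm21970, among 17666, were Ggnbp2 (Pearson r = 0.94), Mall (0.92), Med23 (0.89), Gm50433 (0.87) and Rpl14-ps1 (0.87). Ggnbp2 was 11.04, 11.02 and 10.95 in KO lungs and 10.74 in WT heart replicate 2, and at most 10.43 in the other 8 libraries. Rpl14-ps1, a ribosomal protein pseudogene, was 9.74 to 11.18 in KO lungs, at 0 in WT lungs, and 7.54, 8.44 and 0 in WT hearts. In KO hearts, where Gm21970 was listed at 0, it was 4.38, 0 and 2.68. The points share the 12 libraries with their tissue and genotype, the KO lungs that chose Gm21970 among them. For Il10ra the most alike were Rgs14, Ccr7, Myo15b, Amz1 and Bicdl2, each with r = 0.99 and each higher in every lung than in every heart. Ccr7, a chemokine receptor of lymphocytes and dendritic cells, was 7.62 to 8.31 in WT lungs and 2.20 to 3.76 in WT hearts.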

How the data were processed

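RNA of 12 libraries (lung and heart of 3 WT and 3 KO mice) was quantified by the authors with Salmon against GENCODE vM33 transcripts (mm39). The submitters' processing notes also name cutadapt, STAR and limma 3.42.2. The deposited values are log2: transcript values are the log2 of 1 plus the estimated count, and gene values carry a scaling constant of each library, -0.63 to 0.80, found here from genes with 1 transcript (at least 94.7% within 0.01). How the authors went from transcripts to genes is not given in the sources used here. The constant was added to transcript values above 0. A transcript estimate shares reads between overlapping transcripts, which bears on Gm21970, Il10rb and Ifnar2 in particular, and a value of 0 can be an assignment of reads elsewhere. Gene values are not sums of transcripts.

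Genes or transcripts that reached 3.459 (10 estimated counts on the log2 scale) in 3 or more libraries were fitted with lmFit and eBayes with a trend (limma 3.58.1, R 4.3.3) on the 6 libraries of each comparison. P-values were adjusted by Benjamini-Hochberg over all features tested, and intervals are the 95% intervals of that fit. The thresholds follow the study's methods. The script was tested on simulated data. The genes, lists and rules were chosen with earlier results of these data known. The fits of lung against heart include Ifnar2 and Il10rb, but their lung values entered the choice, so they are described without a p in both genotypes. Genes named from a list are those past the thresholds, at most 4 a list by size of difference, and the genes most like Gm21970 and Il10ra are the 5 with the highest Pearson r. Exact permutation tests were used for sums. Per kb levels divide scaled estimated counts by transcript lengths of GENCODE vM39, matched by identifier for all 33 transcripts, 24 of them in the same version. Lung and heart libraries pair by mouse identifier, and the deviations of the same mouse from its group means correlated between the tissues at -0.07 to 0.14 over 17666 genes. The table holds 15 of 16 flanking genes listed. No column of other samples was present, and the authors' mark of detected genes served in an alternative. Other alternatives were no filter, median centring, another pseudocount, summed transcripts, limma-voom, no trend, 1 fit over 12 libraries, the mouse as a block and leaving out each library. The result of 1 list of cell type markers is not reported here.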

Additional observations from a re-analysis of the deposited data

How the results depend on the processing

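Between KO and WT hearts 0 of the 7 genes and 0 of the tested transcripts passed under any alternative. The count over all genes, 13, ran from 10 to 21 when 1 heart library was left out, highest without KO heart replicate 2, and the count over all transcripts, 20, ran from 3 (without KO heart replicate 3) to 48 (without WT heart replicate 3), with 5 without KO heart replicate 1 and 40 without KO heart replicate 2. Small heart differences changed sign. Il10rb went from 0.01 to -0.0116 under median centring and lay between -0.12 and 0.0808 when 1 library was left out. Ifnar1 was -0.00178 with summed transcripts. Ifngr2, at -0.02, lay between -0.0794 and 0.0461 when 1 library was left out, and the summed level of Gm21970, Il10rb and Ifnar2 between -0.0496 and 0.0992, against 0.03 with all libraries. In WT lung against WT heart all 5 tested genes passed in every alternative, and 6 or 7 of the 7 transcripts. Ifnar1-205 was lost without the libraries named above and with no filter on low values (adjusted p = 0.0528). Leaving out 1 library moved the flanking genes higher in lung from 5 to between 3 and 6, the kinases and transducers lower in lung from 2 to 1, and the interferon targets lower in lung from 0 to 1. Among genes marked as detected, 0 IL-10 targets were lower in lung in place of 1. In KO lung against KO heart all 5 tested genes passed in every alternative. With the mouse as a replicate block, the pairing changed no call of these genes, with 8295 genes past the thresholds in WT and 8904 in KO against 8358 and 8934 without it. The cause of these changes was not tested. Median centring moved no comparison by more than 0.1 on the log2 scale. Groups of 3 limit the precision. The limma p-values set a difference against the spread within groups of 3 mice, moderated toward a trend over all features tested.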

Other observations

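Genes listed at 0 in 1 library and at 8 or more on the log2 scale in another library of the same group were rare in the gene table. WT hearts had 19 such genes, Gm21970 among them, of 9136 that reached 8 in a WT heart (0.208%). There were 24 of 9927 in WT lungs, 11 of 9679 in KO lungs and 8 of 9190 in KO hearts. Over all groups 44 of 11217 genes (0.392%) had this form in at least 1 group. Among genes that GENCODE vM39 tags as read-through genes, 222 were in the table, 38 reached 8 in some library and 7 of these (18.4%), Gm21970 among them, had this form. By group they were 5 of 30 in WT lungs, 1 of 27 in KO lungs, 2 of 29 (6.9%) in WT hearts and 1 of 26 in KO hearts. Read-through genes share exons with their neighbours by construction, as Gm21970 does. Neither the difference between these shares nor the part of shared exons in it was tested.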
